A study of Drosophila melanogaster with 6 samples.

Results

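The tetraspanin genes of *Drosophila melanogaster* were examined in dissected testes of *Pof* mutant and wild type males. A gene was counted as a member when its symbol begins with Tsp followed by a cytological position, such as *Tsp42Ee* or *Tsp97E*, and when the annotation of the array assigned a probe set to that gene alone. This gave 32 probe sets for 32 genes, out of 13647 probe sets (11982 genes) that name a single gene and 18952 probe sets on the array. None of the 32 was removed for a low level. The wild type males were *y1 w67c23* and the *Pof* mutant males were *y1 w67c23; PofD119/PofD119*, so both genotypes carried the same yellow and white markers. Total RNA of 60 testes from males 0 to 24 h old was used for each of 3 biological replicates per genotype, which gave 6 arrays. One strain represents each genotype, so the loss of *Pof* and other differences between the strains cannot be told apart.

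Tetraspanins are small proteins that cross the membrane several times and gather partner proteins, among them integrins and membrane proteases, into patches of the membrane. In *Drosophila*, *Tsp86D*, *Tsp3A* and *Tsp26A* are of the TspanC8 type, whose members accompany the protease Kuzbanian, which cleaves the receptor Notch. *Tsp2A* acts with Mesh and Snakeskin in the smooth septate junctions that seal the epithelia of gut and Malpighian tubules. A run of neighbouring *Tsp42E* genes on the right arm of chromosome 2 forms a cluster. POF is a protein that binds and stimulates genes of the fourth chromosome, and none of the 32 tetraspanin genes lies there: 18 are on 2R, 5 on 2L, and 3 each on 3L, 3R and X.

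The values are log2 levels after RMA, and a difference of 1 is a doubling on the linear scale. *Pof* itself was at 12.98 ± 0.085 in wild type and 10.39 ± 0.10 in mutant testes (mean ± SD, n = 3 arrays, as for all means given here), a difference of -2.59 (SE 0.092, limma adjusted p = 9.5e-05). The array medians lay between 5.78 and 5.88. Replicate 2 of both genotypes stood apart from replicates 1 and 3 on the first principal component, which carried 51.2% of the variance, and the genotypes separated on the second, with 32.0%. All 10 measured genes of a spermatid list averaged 6 or above in wild type, and their summed linear signal was 112543 to 118215 in wild type and 111730 to 115347 in mutant arrays. Genes of other organs of the male abdomen were measured as well. All 12 accessory gland genes and all 9 gut genes had a mean over the 3 wild type arrays of at least 6. However, 8 of the 9 gut genes were below 6 in wild type replicate 2 and 6 in mutant replicate 2. The accessory gland genes summed to 102194 to 121903 in wild type and 114587 to 128114 in mutant arrays, about as much as the spermatid genes. The part of accessory gland RNA in the tetraspanin levels was not tested. In bulk RNA, fewer cells of a type and less RNA per cell cannot be told apart.

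A level of 6 was the lower limit of expression in the study, and it is used here only as a mark. The wild type mean reached 6 for 18 of the 32 tetraspanin genes (56.3%), and 18 also reached it in the mutant. Among all single-gene probe sets the share in wild type was 58.8%. The 18 genes above the mark had wild type means between 6.10 and 10.82 and included 10 of the 16 genes named *42E*. The 14 genes below it had wild type means between 3.80 and 5.94. *Tsp74F*, at 6.10, and *Tsp42Er*, at 5.94, were the members nearest to the mark on each side. Probe sets differ in how well they bind their targets, so the order of these levels is not an order of transcript amounts.

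**Figure D1:**
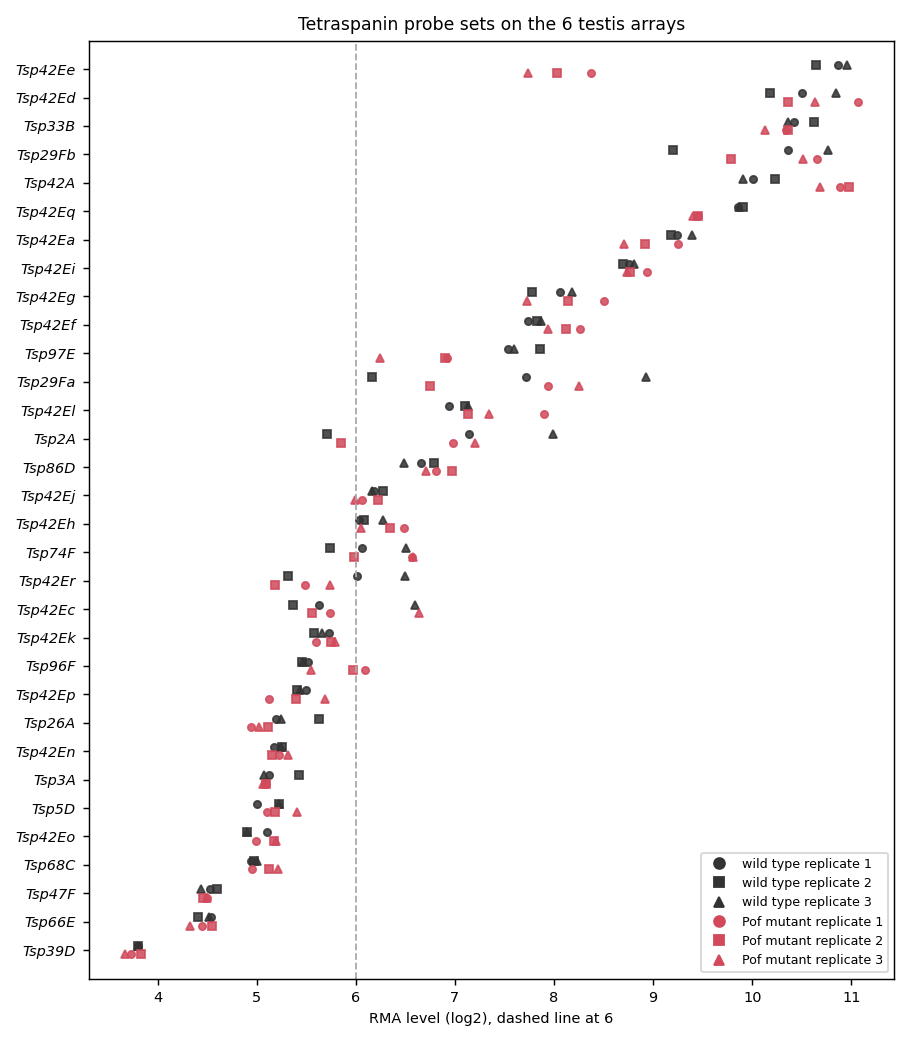
RMA log2 level (axis) of the 32 tetraspanin probe sets in each of the 3 wild type and 3 *Pof* mutant testis arrays, 1 point per array and 1 row per gene, with the level of 6 marked by a line. The points of *Tsp42Ee* lie in separate groups, between 10.64 and 10.95 in wild type and between 7.73 and 8.37 in mutant arrays, while those of *Tsp29Fa* spread from 6.17 to 8.93 within wild type alone.

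Of the 32 tetraspanin genes, 3 changed in *Pof* mutant testes. *Tsp42Ee* and *Tsp42Eq* were lower in mutant testes and *Tsp42A* was higher, by limma with Benjamini-Hochberg adjustment over all 13647 single-gene probe sets and a threshold of 0.05. That is 9.38% of the family, against a background of 2.48% of all single-gene probe sets, 1.14% higher and 1.34% lower. The share of the family rests on 3 genes, and leaving out single arrays removed calls from it. An unadjusted p under 0.05 in limma was reached by 7 of the 32 members, against a background of 1900 of 13647 probe sets (13.9%). Most of the family moved little, as did most probe sets. Of the 32 members, 29 differed by less than 0.5 between the genotype means and 19 by less than 0.2. Of the 13647 single-gene probe sets, 12652 and 9640 did so, which are somewhat larger shares than in the family. The mutant mean was above the wild type mean for 18 members and below it for 14, with a median difference of 0.049, against 0.0067 over all single-gene probe sets.

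All mutant arrays lay below all wild type arrays for 5 members (15.6%), *Tsp42Ee*, *Tsp97E*, *Tsp42Eq*, *Tsp26A* and *Tsp33B*, where the background was 10.8%. They lay above all wild type arrays for 4 members (12.5%), *Tsp42A*, *Tsp42Ef*, *Tsp42El* and *Tsp96F*, against a background of 9.13%. Both shares of the family were near the background. With 3 arrays against 3, an exact two-sided permutation test of a single gene cannot give a p below 0.1. The tests here rest instead on limma, which draws the spread of each gene towards that estimated over all genes.

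**Figure D2:**
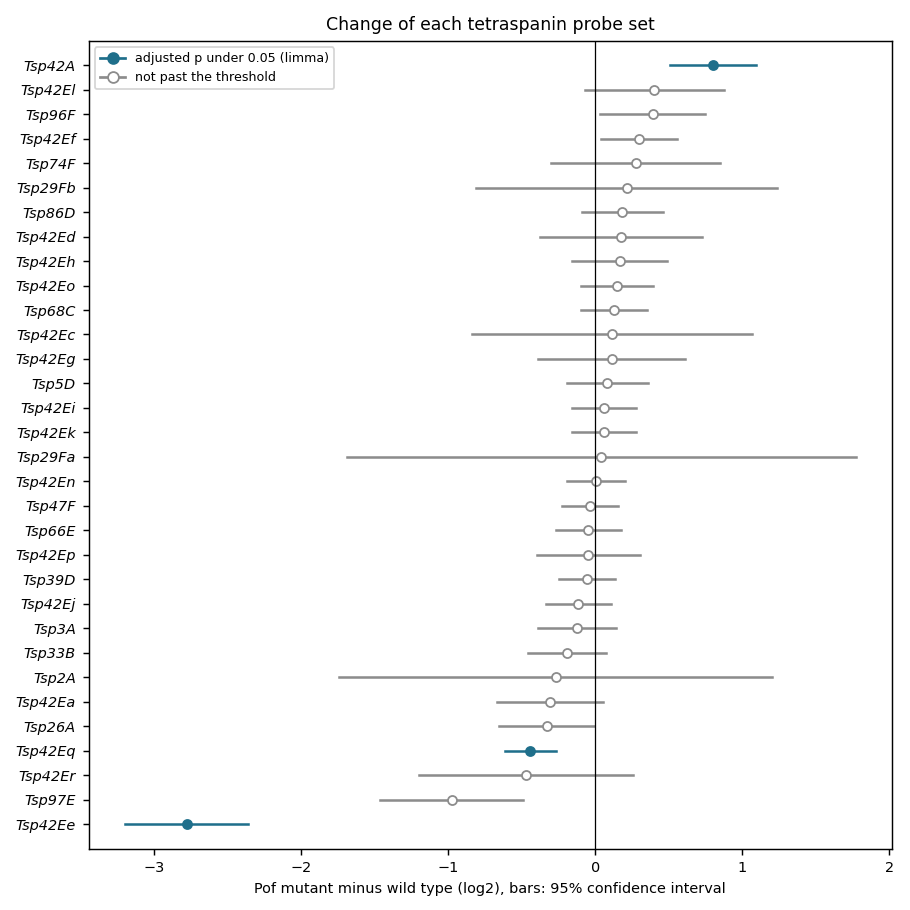
Difference of the mean log2 level, *Pof* mutant minus wild type, for the 32 tetraspanin probe sets (x axis), with bars for the 95% confidence interval from limma. *Tsp42Ee* stands at -2.78, *Tsp97E* at -0.98 and *Tsp42A* at 0.80, and 29 of the 32 points lie within 0.5 of no difference.

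*Tsp42Ee* had the largest difference of the family. Its wild type arrays stood at 10.87, 10.64 and 10.95 in replicates 1, 2 and 3, and its mutant arrays at 8.37, 8.03 and 7.73. Every mutant array was more than 2 log2 units below every wild type array. The mean fell from 10.82 ± 0.16 to 8.04 ± 0.32, a difference of -2.78 (SE 0.18, 95% confidence interval -3.20 to -2.36, adjusted p = 7.1e-04), so that the mutant retained 14.6% of the wild type level on the linear scale. The difference was present between arrays of the same replicate number, at -2.50, -2.62 and -3.22. It stayed past the threshold in all 14 alternative analyses, where it ranged from -2.94 to -2.62 with a highest adjusted p of 0.0083.

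The neighbours of *Tsp42Ee* did not share a difference of this size. The gene table places 18 genes of the 42E cluster in a row, *late bloomer* (*lbm*) among them, and 17 were measured by a probe set of their own. The 16 other than *Tsp42Ee* differed by -0.47 to 0.40, all outside the confidence interval of *Tsp42Ee*. On one side of *Tsp42Ee*, *Tsp42Ed* differed by 0.17 and *Tsp42Ec* by 0.11, and on the other side *Tsp42Ef* differed by 0.30 and *Tsp42Eg* by 0.11, none of them past the threshold (adjusted p 0.277 to 0.947). Other genes inside the run were also close to wild type, *CG30159* at -0.22 and *Pgant3* at -0.10. Of the cluster, *Tsp42Ee* and *Tsp42Eq* were past the threshold.

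**Figure D3:**
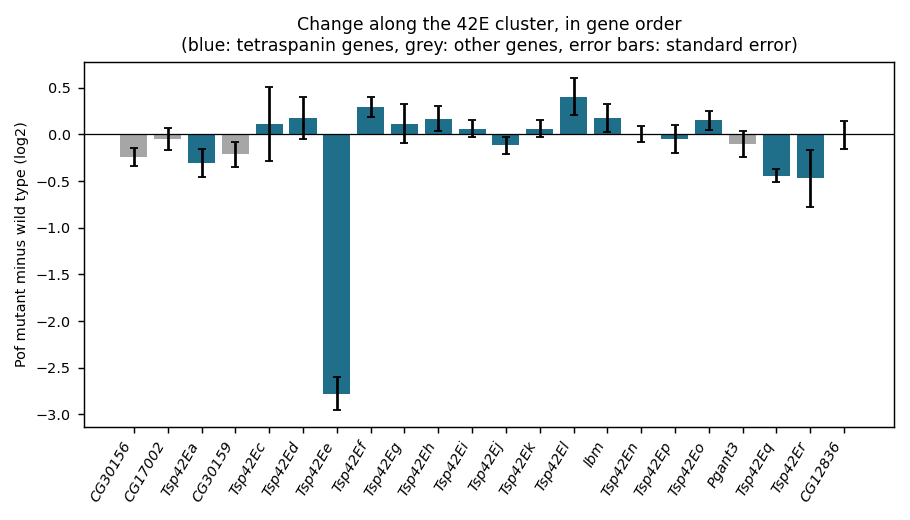
Difference of the mean log2 level, *Pof* mutant minus wild type (y axis), for the measured genes of the 42E region in their order along 2R (x axis, order only), with tetraspanin genes as blue bars, other genes as grey bars and error bars for the standard error from limma. *Tsp42Ee* lies at -2.78, and the 16 other measured tetraspanin genes of the row lie between -0.47 and 0.40.

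*Tsp42Eq*, near the far end of the same row, was lower in the mutant by a small amount. The wild type arrays stood at 9.86, 9.91 and 9.87 and the mutant arrays at 9.45, 9.45 and 9.40. Both genotypes were tightly grouped and did not overlap. The difference was -0.44 (SE 0.073, 95% confidence interval -0.62 to -0.27, adjusted p = 0.032), which left 73.6% of the signal of wild type, and it was -0.41, -0.46 and -0.47 between arrays of the same number. This call stood close to the threshold: it was lost when any 1 of the 6 arrays was left out, and the adjusted p was 0.067 after the constants described in the methods of the study were added to the mutant arrays. With the constants the difference was -0.38.

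*Tsp42A* lies on the same arm outside the cluster and was higher in the mutant. Its wild type arrays stood at 10.01, 10.23 and 9.91, and its mutant arrays at 10.88, 10.98 and 10.68. The lowest mutant array was above the highest wild type array. The mean rose from 10.05 ± 0.16 to 10.85 ± 0.15, a difference of 0.80 (SE 0.12, 95% confidence interval 0.51 to 1.09, adjusted p = 0.024), which is 174% of the level in wild type, and it was 0.87, 0.75 and 0.77 between arrays of the same number. The size was stable, 0.73 to 0.89 when single arrays were left out, but the call was lost without mutant replicate 1 (adjusted p = 0.106), mutant replicate 2 (0.086), wild type replicate 1 (0.138) or wild type replicate 3 (0.090).

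*Tsp97E*, which the gene table also lists as *Tspan31*, did not pass the threshold although its mutant arrays were all below wild type. The wild type arrays stood at 7.54, 7.86 and 7.60 and the mutant arrays at 6.92, 6.90 and 6.24. Mutant replicate 3 was the lowest of the 6 and stood well apart from the other mutant arrays. The difference was -0.98 (SE 0.20, 95% confidence interval -1.46 to -0.49, adjusted p = 0.070), and the mutant signal was 50.8% of that in wild type. It passed the threshold in the fit blocked by replicate (adjusted p = 0.035), which raised the count of the family from 3 to 4, against a background of 3.99%. It also passed with the constants of the study (adjusted p = 0.044, difference -0.91), where *Tsp42Eq* dropped out, so the count stayed at 3, against a background of 3.22%. Over all genes the constants moved the split of calls from 156 higher and 183 lower to 259 higher and 180 lower.

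Some genes of other cell types also fell in the mutant, as *Tsp42Ee* and *Tsp42Eq* did. Wild type means reached 6 for only 4 of 7 fat body and haemolymph, 3 of 9 haemocyte and 2 of 6 cyst and hub probe sets. All genes of these 3 lists that were called lower were among them, so the list medians rest largely on weak signals. Of 7 fat body and haemolymph genes, 3 were lower in the mutant (*Lsp2*, a larval storage protein, by -1.62, *Fbp2* by -2.09 and *Fbp1* by -1.66), while the list median was -0.0080. Its summed linear signal was 2391 to 3109 in wild type and 2133 to 2309 in mutant arrays, and without these 3 genes the sums overlapped (1887 to 2146 and 1967 to 2092). Of 9 haemocyte probe sets, 2 were lower (*Col4a1* and *vkg*, the subunits of type IV collagen, by -0.87 and -1.13), and the list median was 0.019. The sums of this list were 1634 to 1742 and 1029 to 1180 with the collagen genes, and 358 to 397 and 352 to 490 without them. *Hml* and *NimC1*, which define haemocytes, had wild type means below 6 (5.72 and 5.26) and differed by 0.07 and 0.31, neither past the threshold. Of 6 cyst and hub genes, 1 was lower (*CadN*, by -1.34), the list median was 0.031, and the sums were 452 to 532 and 311 to 396 with *CadN* and 261 to 282 and 244 to 305 without it. The 3, 2 and 1 genes left out of these sums were picked by the same comparison of genotypes. The overlap of the remaining sums therefore shows nothing further about the cell types. The part of these cell types in the tetraspanin differences was not tested. Of the germline lists, 2 of 10 spermatid genes were lower (*dj* and *Mst84Db*). So was 1 of 5 genes of germline stem cells and spermatogonia (*aub*). None of 11 probe sets for primary spermatocytes passed the threshold. The medians of these 3 lists were 0.039, -0.13 and -0.025, in this order. The mutant mean was above the wild type mean for 6, 2 and 3 of their probe sets. Over all single-gene probe sets, 1.34% were called lower.

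A separate pattern within the family followed the replicate and not the genotype. In 3 members, *Tsp29Fa*, *Tsp2A* and *Tsp29Fb*, replicate 2 was the lowest array of both genotypes by more than 0.5, which is 9.38% of the family against a background of 2.76%. This gap of 0.5, and the naming of *Tsp29Fa*, were chosen after the values were seen. No member was high by this gap in replicate 2 of both genotypes. Only 11 of all 13647 single-gene probe sets were, so none would be likely among 32 genes.

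*Tsp2A*, the septate junction gene, stood at 7.14, 5.71 and 7.99 in wild type replicates 1, 2 and 3 and at 6.98, 5.85 and 7.20 in the mutant. Replicate 2 was lower than the mean of replicates 1 and 3 by 1.85 in wild type and by 1.24 in the mutant, and the genotypes overlapped. The difference between genotypes was -0.27 (SE 0.62, adjusted p = 0.914). Its partner *mesh* followed it in its higher probe set, at 7.15, 6.19 and 8.22 in wild type and 7.49, 6.59 and 7.16 in mutant arrays. *Ssk*, which encodes Snakeskin, stood at 9.62, 9.24 and 10.10 and at 9.21, 8.25 and 9.25, again lowest in replicate 2 of each genotype, although by less than 0.5 in wild type. None of the 3 junction genes passed the threshold between genotypes. *Ssk* had the largest difference of them, -0.75 (SE 0.33, limma adjusted p = 0.381). In the fit blocked by replicate its adjusted p was 0.0503, just short of the threshold.

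*Tsp29Fa* and *Tsp29Fb* are neighbours on 2L and had the same form. *Tsp29Fa* stood at 7.72, 6.17 and 8.93 in wild type and at 7.94, 6.75 and 8.25 in the mutant, and *Tsp29Fb* at 10.36, 9.20 and 10.76 and at 10.66, 9.79 and 10.51. In both genes the low arrays were replicate 2 of each genotype, and the genotypes overlapped. The genotype differences were small beside this spread, 0.04 (SE 0.72, adjusted p = 0.990) and 0.21 (SE 0.43, adjusted p = 0.901). An interval this wide, -1.69 to 1.77 for *Tsp29Fa*, leaves a sizeable difference in either direction undetectable in this fit, which ignores the replicate number. In the limma fit blocked by replicate the SE was 0.17 for *Tsp29Fb* and 0.18 for *Tsp2A*. Neither passed the threshold there (adjusted p = 0.576 and 0.510).

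Genes of the gut moved with these 3 members. All 9 measured gut genes, mostly secreted proteases and other digestive enzymes, were also low in replicate 2 of both genotypes by more than 0.5. Their summed linear signal was 6674, 391 and 8326 in wild type replicates 1, 2 and 3, and 6340, 487 and 10588 in the mutant. Of 6 genes of Malpighian tubules, 3 were low in replicate 2, with sums between 2653 and 5013 in wild type and between 2842 and 3883 in the mutant. The sum over 17 muscle sheath probe sets was also lowest in replicate 2, at 5515, 4789 and 8350 in wild type replicates 1, 2 and 3. In the mutant it was 5937, 4821 and 5958. None of these probe sets was low in replicate 2 of both genotypes by more than 0.5. No gene of the gut, tubule or muscle list passed the threshold between genotypes. The part of gut RNA in the tetraspanin levels was not tested.

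**Figure D4:**
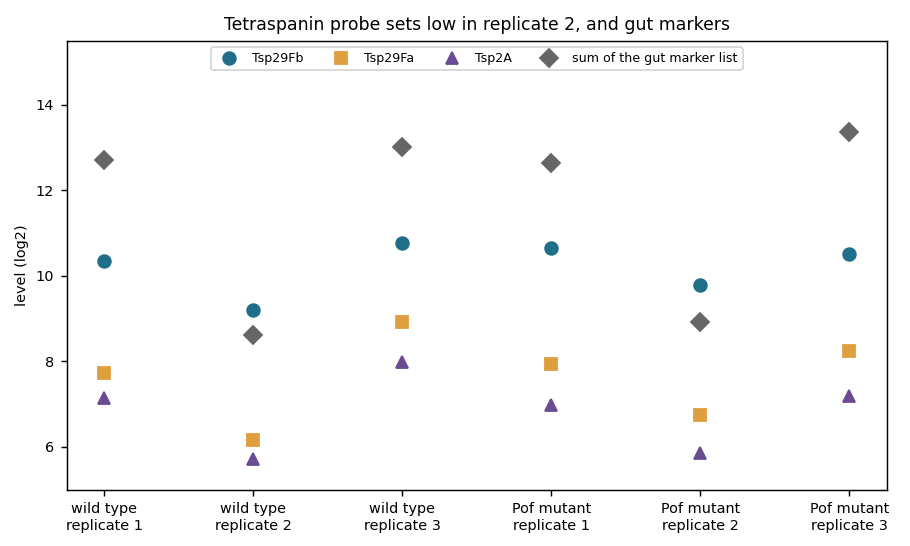
RMA log2 level (y axis) of *Tsp29Fa*, *Tsp2A* and *Tsp29Fb* and log2 of the summed linear signal of 9 gut genes, for each of the 6 arrays (x axis), 1 symbol per gene or list. For every symbol replicate 2 is the lowest in wild type and in *Pof* mutant testes, with gut sums of 391 and 487 there against 6340 to 10588 on the other arrays.

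The TspanC8-type genes did not pass the threshold. *Tsp86D* stood at 6.66, 6.79 and 6.48 in wild type and at 6.81, 6.97 and 6.71 in mutant arrays, and the genotypes overlapped, with a difference of 0.18 (95% confidence interval -0.09 to 0.46, adjusted p = 0.581). *Tsp26A* and *Tsp3A* were below 6 on every array. *Tsp26A* stood at 5.20, 5.63 and 5.24 and at 4.94, 5.11 and 5.02, all mutant arrays below wild type, with a difference of -0.33 (adjusted p = 0.343). *Tsp3A* stood at 5.12, 5.43 and 5.08 and at 5.09, 5.10 and 5.06, with a difference of -0.13 (adjusted p = 0.723), and here the genotypes overlapped.

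Lists of genes around the known partners of tetraspanins were also without calls. Of a list of 16 ADAM protease and Notch pathway genes, 8 were measured by 12 probe sets, and none was higher or lower by adjusted p, with a median difference of 0.072. The protease gene *kuz* had a wild type mean of 4.52 and differed by 0.13. The members with the highest levels were the γ-secretase genes *Psn* (wild type mean 8.97, difference 0.11) and *pen-2* (8.26, -0.0028). All 11 genes of a list of integrins and integrin-linked proteins were measured, by 13 probe sets. None passed the threshold, and the median difference was 0.080. Among them *stck*, which does not encode an integrin subunit, had a wild type mean of 9.30 and differed by 0.25. The gene *mys*, an integrin beta subunit, had 8.41 and 0.24 in its higher probe set.

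Of the other members with high levels, *Tsp42Ed* stood at 10.50, 10.18 and 10.85 in wild type and at 11.07, 10.36 and 10.63 in mutant arrays, which overlapped (difference 0.17, adjusted p = 0.835). *Tsp33B* stood at 10.42, 10.62 and 10.36 and at 10.34, 10.36 and 10.13. Its mutant arrays were just below the lowest wild type array (difference -0.19, adjusted p = 0.534). *Tsp42Ea* stood at 9.24, 9.18 and 9.40 and at 9.26, 8.92 and 8.71, where mutant replicate 1 lay within the wild type range (difference -0.31, adjusted p = 0.448). *Tsp42Ei* stood at 8.75, 8.70 and 8.81 and at 8.94, 8.76 and 8.74, with overlapping genotypes and a difference of 0.06 (adjusted p = 0.857). By the gene table, *Tsp42Ea* and others, 12 members in all, overlap another gene, and 5 members are read by probe sets of a kind that can bind several transcripts, so their signal cannot be assigned to the tetraspanin transcript with certainty.

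The remaining larger differences were positive for *Tsp42El* and *Tsp96F* and negative for *Tsp42Er*, and none passed the threshold. *Tsp42El* stood at 6.94, 7.10 and 7.13 in wild type and at 7.90, 7.13 and 7.35 in mutant arrays, so that mutant replicate 2 was just above the highest wild type array (difference 0.40, adjusted p = 0.453). *Tsp96F*, below 6 in wild type, stood at 5.51, 5.46 and 5.47 and at 6.09, 5.98 and 5.54 (difference 0.39, adjusted p = 0.307). Mutant replicate 3 was the closest to wild type, and without it the difference was 0.55 and passed the threshold (adjusted p = 0.040). *Tsp42Er* stood at 6.01, 5.32 and 6.50 and at 5.49, 5.19 and 5.74, again lowest in replicate 2 of both genotypes (difference -0.47, adjusted p = 0.600).

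The other members above 6 had wild type and mutant means of 8.01 and 8.12 for *Tsp42Eg*, 7.81 and 8.11 for *Tsp42Ef*, 6.21 and 6.09 for *Tsp42Ej*, 6.13 and 6.29 for *Tsp42Eh*, and 6.10 and 6.38 for *Tsp74F*. *Tsp42Ej*, also named *sunglasses*, encodes a lysosomal protein needed for the degradation of rhodopsin in photoreceptors. Differences among these 5 genes lay between -0.12 and 0.30. The members with wild type means below 6 that are not described above were *Tsp42Ec*, *Tsp42Ek*, *Tsp42Ep*, *Tsp42En*, *Tsp42Eo*, *Tsp5D*, *Tsp68C*, *Tsp47F*, *Tsp66E* and *Tsp39D*. Over all 14 members below 6, differences lay between -0.47 and 0.39 and none passed the threshold, with 2 at an unadjusted p under 0.05. *Tsp96F* passed the adjusted threshold only without mutant replicate 3, as given above.

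Of tetraspanin genes with symbols of another form, *lbm*, needed for the timely formation of synapses by motor neurons, had a wild type mean of 5.49 and differed by 0.17 (adjusted p = 0.716), and *TM4SF* had 6.61 and differed by 0.016 (adjusted p = 0.977).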

How the data were processed

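The testis arrays were Affymetrix *Drosophila* gene chips. The deposited values are log2 levels that the authors made with RMA, which subtracts background, brings all arrays to a common distribution and summarises each probe set, so a change of most genes in one direction would be removed and differences of weak signals are understated. Neither the minimum of 6 nor the constants of the methods are in the deposited values, and they were used here as alternatives. Coordinates are left out, because the genome build of the array design is, like the RMA version, not given in the sources used here.

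Mutant minus wild type was fitted with lmFit and eBayes of limma 3.58.1 (R 4.3.3), with Benjamini-Hochberg adjustment over 13647 single-gene probe sets and a threshold of 0.05. Of the remaining probe sets, 402 name several genes and 4903 none. Of the single-gene probe sets, 13544 matched a Release 6 gene table, which gave chromosome arms, gene order and overlaps. Alternatives were the constants, the minimum with the constants, a mean of at least 6 over all arrays, all probe sets, averages per gene, trend and robust options, the replicate block, no replicate 2 arrays, and leaving out each array. The fit was tested on simulated data. Figures were drawn with matplotlib 3.10.9.

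Both genotypes have replicates 1, 2 and 3. Same-numbered arrays deviated together from their genotype means over genes (correlations 0.246, 0.850 and 0.551), and the blocked fit took the numbers to pair the arrays. Only replicate 2 matched clearly. For mutant replicate 1 the correlation with wild type replicate 3 was higher (0.471). Mutant replicate 3 correlated nearly as well with wild type replicate 1 (0.542). Deviations cancel within a genotype, so a replicate 2 that stands apart in both genotypes makes replicates 1 and 3 correlate by itself. The correlations therefore cannot show that replicates 1 and 3 are paired, and no source names a shared day or batch. The number of arrays limits the precision.

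Values on every array are given for members past the threshold, the 8 with the highest wild type mean, the 8 with the largest difference, *Tsp2A* and the TspanC8 type. The members and lists were chosen with earlier results of these data known. From the list of tetraspanins with other names, *sun* and *sunz* were left out because these symbols belong to other genes on this array. Of the lists of neuron and glia, muscle sheath, and ejaculatory duct genes, none had a call.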

Additional observations from a re-analysis of the deposited data

How the results depend on the processing

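Leaving out single arrays gave 0 to 2 higher and 1 lower tetraspanin genes, 61 to 161 higher and 83 to 184 lower among all single-gene probe sets, and a family median of -0.014 to 0.096. *Tsp42Ee* was past the threshold in each of these fits, *Tsp42Eq* in none, and *Tsp42A* only without mutant replicate 3 or wild type replicate 2; *Tsp96F* passed only without mutant replicate 3. Of 16 named members, 12 kept their direction in every alternative. The other 4, none of them called, changed sign when single arrays were left out: *Tsp29Fb* (-0.24 to 0.54), *Tsp2A* (-0.89 to 0.25, with 0.14 without mutant replicate 2), *Tsp42Ed* (-0.015 to 0.34) and *Tsp42Ei* (-0.0040 to 0.098). Without both replicate 2 arrays 1 tetraspanin gene was lower, and *Tsp42Eq* was not past the threshold (adjusted p = 0.173). *Tsp42Eq* was also lost with trend and robust options (0.063) and with the minimum and constants of the study (0.057), and *Tsp97E* passed in both (0.028 and 0.042). The constants gave 259 higher calls over all genes and a family median of 0.11, or 0.15 with the minimum too. The replicate number as a block pairs the arrays, which their correlations bear out clearly only for replicate 2. With this block, 231 probe sets were higher and 314 lower. Adjusted p was then 0.0022 for *Tsp42Ee*, 0.0097 for *Tsp42A*, 0.049 for *Tsp42Eq* and 0.035 for *Tsp97E*, and no other member changed its call. The minimum removes members below 6, so no value exists for them there. The causes of these shifts were not tested, except that fits without arrays rest on fewer samples.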

Other observations

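A pair of tetraspanin genes could be read only by probe sets that the annotation of the array assigns to several genes, and they are in none of the counts above. *Tsp66A* shares 3 probe sets with *CG42660* and *CG42661*. In the first, wild type arrays stood at 10.51, 10.72 and 10.46 and mutant arrays at 10.11, 10.17 and 9.89, a difference of -0.51 (limma over all 18952 probe sets, adjusted p = 0.095). The other probe sets of this group differed by -0.37 (adjusted p = 0.305) and -0.53 (adjusted p = 0.268). In all 3 every mutant array was below every wild type array, as in 10.8% of all single-gene probe sets. For the probe set at -0.37, the highest mutant array stood at 6.2399 and the lowest wild type array at 6.2439. For the probe set at -0.53, these arrays stood at 10.311 and 10.324. The 3 probe sets name the same genes, so they are not independent results. None of the 3 probe sets passed the threshold, and the annotation does not say which of the genes gave the signal.

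*Tsp42Eb*, a gene of the 42E cluster, shares its probe set with *CG30160*. Wild type replicates 1, 2 and 3 stood at 7.18, 6.12 and 8.12 and mutant replicates at 7.86, 6.50 and 7.97, so replicate 2 was again the lowest array of both genotypes. The genotypes overlapped and differed by 0.30 (adjusted p = 0.905).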
